A study of Mus musculus with 38 samples.

Results

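Levels of 9 tricarboxylic acid cycle enzyme genes were followed in brown adipose tissue of C57BL/6J mice across diets, doses of a botanical formulation and time. The genes were Cs, Csl, Idh3a, Idh3b, Idh3g, Ogdh, Suclg1, Fh1 and Mdh2, chosen by their gene names in the scanner files. They are 9 of the 29411 gene names on the array, and 12 of its 40628 probes carry them. For each gene the probe with the highest mean was used, and all 9 genes were among the 21862 tested.

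The study fed mice, weaned at 3 to 4 weeks of age, and collected tissues over a period of weeks to see how expression moved with the diet and with the formulation. The low-fat control group (LFC) received a normal diet with 10% of its calories from fat, and the high-fat control group (HFC) a diet high in sucrose with 60% of its calories from fat. The other three groups received the high-fat diet together with Kal-1, an aqueous botanical formulation, at 5 µg (HF5), 20 µg (HF20) or 75 µg (HF75). There were 10 LFC arrays and 10 HFC arrays, from Day 6 to Week 18, and 6 arrays for each dose, from Week 3 to Week 18. A single array (1) stood for each group at each time point, so the time points served as replicates, and the p-values measure the spread between time points rather than between animals. The number of animals behind an array was not given in the labels. All groups shared the strain, and no group received Kal-1 on the low-fat diet.

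The tricarboxylic acid cycle takes place in the mitochondrial matrix, where the acetyl group of acetyl-CoA is oxidised to carbon dioxide and the electrons are passed to the respiratory chain as NADH and FADH2. Brown adipocytes are rich in mitochondria and use this supply of electrons to make heat, because the uncoupling protein Ucp1 lets protons return to the matrix without making ATP. Cs makes citrate from oxaloacetate and acetyl-CoA. Csl is a gene closely related to Cs. Idh3a, Idh3b and Idh3g encode the subunits of the NAD-dependent isocitrate dehydrogenase. Ogdh is the first component of the 2-oxoglutarate dehydrogenase complex, Suclg1 the alpha subunit of succinyl-CoA ligase, Fh1 fumarate hydratase, and Mdh2 the mitochondrial malate dehydrogenase.

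The measurements rest on probes of 60 bases. The probe used for each gene is shown because the level of a gene here is the signal of that probe alone, and no part of it is in capitals.
Cs: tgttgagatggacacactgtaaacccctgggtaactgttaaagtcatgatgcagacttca
Csl: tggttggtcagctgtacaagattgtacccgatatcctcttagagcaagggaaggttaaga
Idh3a: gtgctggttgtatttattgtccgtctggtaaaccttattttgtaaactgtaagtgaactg
Idh3b: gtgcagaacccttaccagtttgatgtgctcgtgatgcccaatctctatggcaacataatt
Idh3g: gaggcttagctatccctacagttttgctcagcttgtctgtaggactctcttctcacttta
Ogdh: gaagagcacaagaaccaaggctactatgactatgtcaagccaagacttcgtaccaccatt
Suclg1: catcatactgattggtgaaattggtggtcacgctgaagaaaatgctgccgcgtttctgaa
Fh1: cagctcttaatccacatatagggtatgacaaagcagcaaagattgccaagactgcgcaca
Mdh2: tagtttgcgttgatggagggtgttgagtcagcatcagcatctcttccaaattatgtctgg
The probe of Idh3a had 36.7% G and C, the lowest of the 9, and the probes of Cs and Csl had 43.3% and 45%. No probe of another gene on the array shared 16 bases in a row with a member's probe in either orientation. The probes of Cs and Csl thus differ in sequence. Probes were compared with probes and not with transcripts, so binding of either probe to the RNA of the other gene was not tested. The deposited table places the genes on chromosomes 10 (Cs), 9 (Idh3a), 2 (Idh3b), X (Idh3g), 11 (Ogdh), 6 (Suclg1), 1 (Fh1) and 5 (Mdh2).

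Promoters of 8 of the 9 genes were found in RefSeq (GRCm38.p6), as 300 bases around the start of the gene. The promoters of Idh3b, Idh3g and Mdh2 are shown because Idh3b and Idh3g encode subunits of one enzyme and Mdh2 was the member that did not pass in the comparison of HF75 with HF20. Capitals mark the letters CCGGAAG of an ETS-type motif (on either strand), the letters CCAAT of a CCAAT box (on either strand), or the letters TGACGTCA of a cAMP response element.
Idh3b, chr2:130284402-130284701, minus strand: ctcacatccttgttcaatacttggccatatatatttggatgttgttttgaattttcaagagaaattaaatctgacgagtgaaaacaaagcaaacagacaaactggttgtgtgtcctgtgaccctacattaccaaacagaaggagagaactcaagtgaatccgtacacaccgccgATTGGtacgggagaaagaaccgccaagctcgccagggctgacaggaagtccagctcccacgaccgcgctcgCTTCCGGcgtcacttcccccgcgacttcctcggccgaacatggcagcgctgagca
Idh3g, chrX:73786848-73787147, minus strand: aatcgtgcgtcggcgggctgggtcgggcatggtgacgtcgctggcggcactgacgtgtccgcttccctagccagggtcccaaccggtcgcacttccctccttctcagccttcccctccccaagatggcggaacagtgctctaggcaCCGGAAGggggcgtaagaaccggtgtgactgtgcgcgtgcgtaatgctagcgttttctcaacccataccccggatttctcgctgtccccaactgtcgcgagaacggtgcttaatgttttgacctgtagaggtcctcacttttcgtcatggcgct
Mdh2, chr5:135778399-135778698, plus strand: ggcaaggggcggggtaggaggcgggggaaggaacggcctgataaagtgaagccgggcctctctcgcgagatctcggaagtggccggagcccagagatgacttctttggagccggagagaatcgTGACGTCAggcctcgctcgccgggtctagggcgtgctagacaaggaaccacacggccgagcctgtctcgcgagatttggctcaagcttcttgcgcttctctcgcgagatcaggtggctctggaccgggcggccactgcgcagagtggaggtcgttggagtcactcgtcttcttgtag
The letters CCGGAAG were in the promoters of Idh3b and Idh3g, 2 of the 8 genes, and in 8.86% of all 32851 promoters of this length. The letters TGACGTCA were in those of Ogdh and Mdh2, and in 1.79% of all promoters. The letters CCAAT were in those of Cs, Idh3b, Ogdh and Fh1, and in 37.4% of all promoters. The letters TCAAGGTCA of an estrogen-related receptor motif were in none of the 8 and in 0.423% of all promoters. The shorter letters AAGGTCA, which lies within those letters, was in that of Ogdh and in 4.72% of all. An NRF1 motif was in none of the 8. All were searched on both strands. The 8 genes had 13 promoters, because Ogdh had several, some overlapping, so counts of genes and shares of promoters are not like measures. By promoter, CCGGAAG was in 2 of the 13, TGACGTCA in 4, CCAAT in 9 and AAGGTCA in 1. None of the motifs overlapped another in the promoters shown.

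Levels are given as the log2 of the processed signal of the probe minus the log2 of the 75th percentile of its array, so 0 is that percentile. A level compares one gene between arrays and not one gene with another. The arrays differed in brightness: the 75th percentile ran from 35.1 to 1209 signal units (median 183), with 11 arrays above 600 (bright) and 27 below it. The bright arrays were LFC Week 0, 3, 9 and 12, HFC Day 10 and Week 3, HF20 Week 3, 6, 12 and 15, and HF75 Week 3, and no HF5 array was bright. Between 36.6% and 78.8% of the spots on an array were well above background. The time point was kept as a block in the comparisons because each held 1 array per group. The arrays of a time point were mostly scanned on the same day. LFC Week 9 was scanned on another day than the other Week 9 arrays. HF20 and HF75 of Week 6 were scanned on another day than the other Week 6 arrays.

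**Figure D1:**
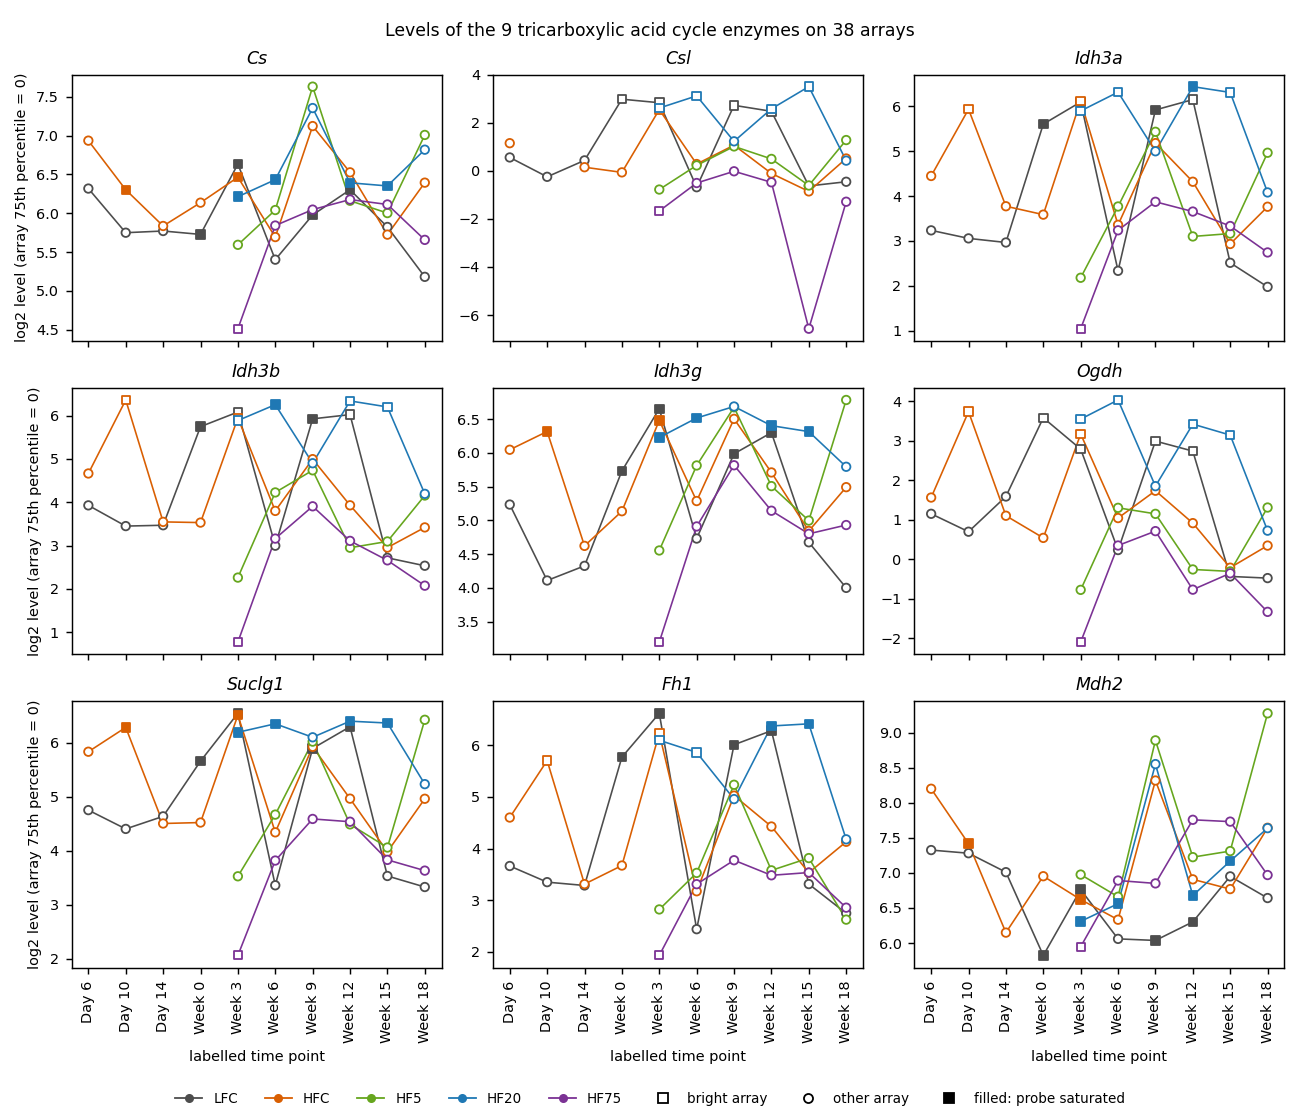
Level of each member (log2, array 75th percentile at 0) on each of the 38 arrays against the labelled time point, coloured by group; squares are bright arrays and filled symbols are arrays on which the probe was saturated. HF75 Week 3 lies lowest or next to lowest in every panel, and the level of Csl in HF75 Week 15 is at -6.57.

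The HF75 array of Week 3 stood apart from the other 37 arrays. The summed level of 10 brown adipocyte markers (Ucp1, Cidea, Dio2, Elovl3, Cox8b, Adrb3, Prdm16, Ppargc1a, Fabp3 and Otop1) was 3.17 on that array and 6.86 to 10.2 on the others. The level of Ucp1 was -3.07 there and 3.38 to 8.57 elsewhere, while 8 to 10 of the 10 markers were well above background on every array. Of the 9 members, 7 had their lowest level of all arrays on it, and all 9 were among their 2 lowest. The summed level of 5 macrophage markers was highest of all arrays there, at 3.78 against 0.74 to 3.27. That of 6 erythroid markers was lowest by a small margin, at 6.841 against 6.844 to 11.9. The mean log2 level of 5 white adipocyte markers was -0.43 there and lower on the other 37 arrays. Their summed level, 3.52, ranked only 3 from the highest, with the others at -1.22 to 4.11. The part of these markers in the results was not tested. The comparisons of HF75 with other groups are given with and without this array. In bulk tissue, fewer brown adipocytes and less RNA per cell cannot be told apart.

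All 9 probes were well above background on all 38 arrays, except that of Csl, which was not well above background on HF75 Week 15. The spot of Csl was marked as an outlier on HFC Day 10 and left out there. The probes of Cs, Idh3g, Suclg1 and Mdh2 were saturated on 10 arrays each, that of Fh1 on 6, and those of Idh3a and Idh3b on 3 each, all of them bright arrays. Those of Csl and Ogdh were saturated on none. For Cs, Idh3g, Suclg1 and Mdh2 this leaves 6 of 10 LFC arrays, 8 of 10 HFC arrays and 2 of 6 HF20 arrays with a signal below saturation, and all arrays of HF5 and HF75.

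Bright arrays held higher levels of most members. The mean level of Idh3b was 3.53 ± 0.79 (SD, n = 27) on the dimmer arrays and 6.08 on the bright arrays without HF75 Week 3, where the lowest was 5.75. The mean level of Ogdh was 0.50 ± 0.87 (SD, n = 27) on the dimmer arrays and 3.32 on those bright arrays. For Idh3a, Idh3b, Fh1, Csl and Ogdh, every bright array other than HF75 Week 3 lay above every dimmer array. Among the 27 dimmer arrays the direction was the opposite. There Pearson's r of the level with the log2 75th percentile ran from -0.70 for Idh3g to -0.09 for Ogdh. The level of Mdh2 was 7.31 ± 0.80 (SD, n = 27) on the dimmer arrays and 6.57 on the bright arrays without HF75 Week 3, on all 10 of which its probe was saturated, so that 6.57 is a lower bound and no direction can be read from it. The part of brightness in the comparisons that follow was not tested beyond the fits with brightness in the model.

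Members also moved with the brown adipocyte markers. Over the 27 dimmer arrays, Pearson's r with the summed markers was 0.94 for Idh3g, 0.93 for Cs and for Suclg1, 0.90 for Idh3a, 0.84 for Mdh2, 0.79 for Idh3b, 0.70 for Fh1, 0.58 for Ogdh and 0.48 for Csl. Over all arrays r was 0.60 for Mdh2, 0.66 for Idh3b and 0.55 for Ogdh. The correlations are descriptions over arrays that share groups, time points and depth. With the summed level of 10 skeletal muscle markers, r over the dimmer arrays was between -0.06 for Ogdh and 0.35 for Mdh2.

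**Figure D2:**
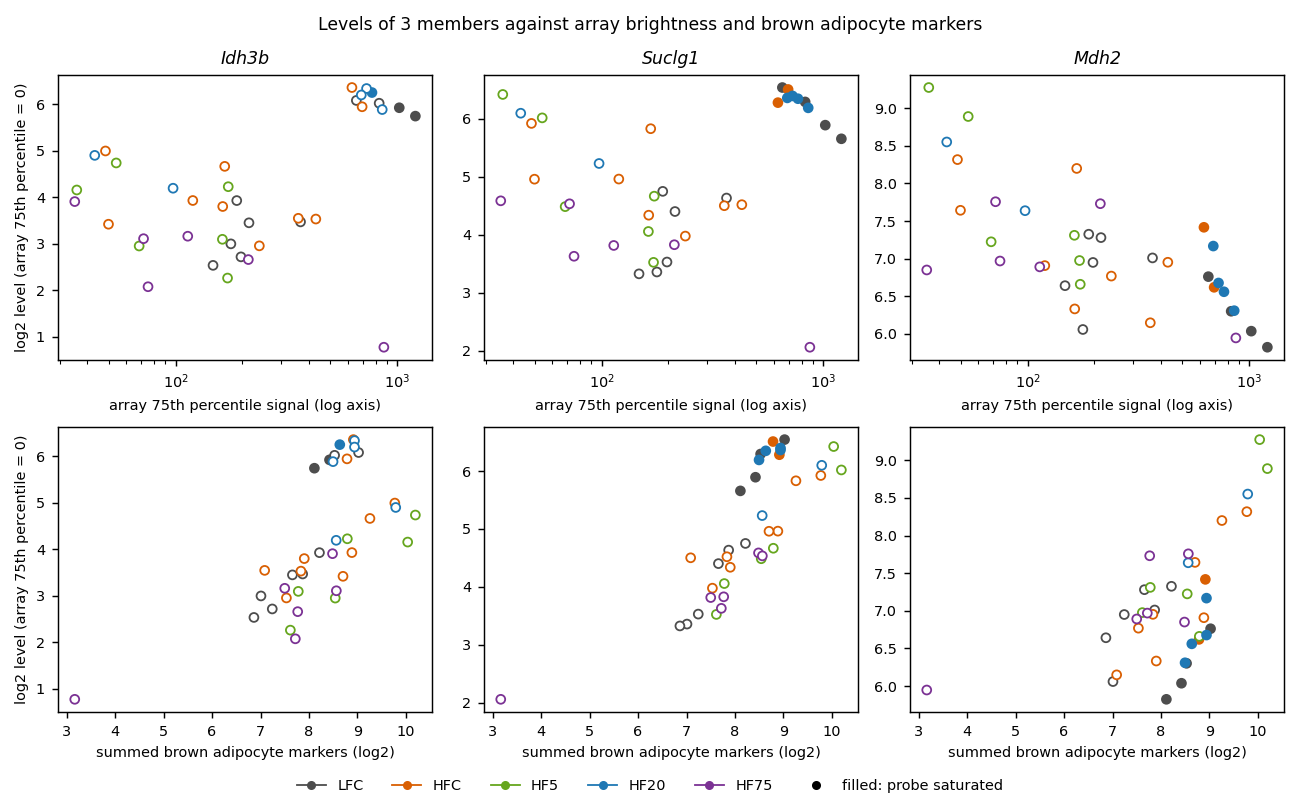
Level (log2) of Idh3b, Suclg1 and Mdh2 on the 38 arrays against the 75th percentile of the array in signal units (top, log axis) and against the summed brown adipocyte markers (bottom, log2), with filled symbols for saturated probes. Idh3b lies higher on bright arrays other than HF75 Week 3, Suclg1 and Mdh2 are saturated on all 10 of those, and HF75 Week 3 stands apart at a marker level of 3.17.

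The members varied together to different degrees. Over 38 arrays r among Idh3a, Idh3b, Idh3g, Ogdh, Suclg1 and Fh1 ran from 0.74 to 0.97 in 15 pairs, with a median of 0.91. For these pairs r ran from 0.51 to 0.94 over the 27 dimmer arrays. The 8 pairs with Mdh2 ran from -0.12 to 0.73 over all arrays, and from 0.24 to 0.86 over the dimmer arrays. Other genes had still more similar patterns. The genes closest to Idh3a over 38 arrays were Sdhd, Gm5131 and Dci, each at r of 0.97. Idh3b was closest to Sdhb and Ndufa10, each at 0.98, and to Pdhb at 0.97. Idh3g was closest to Hadhb (0.98), Sucla2 (0.97) and Cpt2 (0.96), and Ogdh was close to Ndufa10 and Acads, each at 0.97. Suclg1 was closest to Prkar2b (0.97), Ldhb and Dci (0.96 each), and Fh1 to Apoo-ps, Ndufs8 and Ndufs6 (0.96 each). Cs was closest to Ndufv1 and Atp5a1 at 0.92 and Chchd10 at 0.89. Mdh2 was closest to Gm15393 and LOC638710 at 0.91 and Uqcrq at 0.90, and Csl to Fam86, Rab3ip and Ift52 at 0.93 over 37 arrays.

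The question of how the high-fat diet moved the cycle was addressed by HFC minus LFC over 20 arrays, paired by time point. No member passed the threshold (1 at an unadjusted p under 0.05), and 0% of all genes did (0 of 21862 by limma at an adjusted p of 0.05, with 1430 at an unadjusted p under 0.05). The level of Cs in HFC was 5.69 to 7.12 with a median of 6.35, against 5.18 to 6.63 with a median of 5.80 in LFC. The groups overlapped, HFC was higher at 8 of 10 time points, and the fitted change of Cs was 0.43 on the log2 scale (SE 0.19, adjusted p = 0.663 by limma). For Mdh2 the levels were 6.15 to 8.32 (median 6.93) in HFC and 5.82 to 7.33 (median 6.70) in LFC, with a change of 0.51 (SE 0.28, adjusted p = 0.663 by limma). At Week 0, 9 and 12 both probes were saturated in LFC but not in HFC, so no direction can be read there. The differences at these weeks were 0.41, 1.14 and 0.22 for Cs, and 1.13, 2.28 and 0.61 for Mdh2. At Week 3 both probes were saturated in both groups. The changes of Cs and Mdh2 are therefore not exact. The changes of the other members ran from -0.62 for Csl, fitted without HFC Day 10, to 0.47 for Idh3g. The median change of the members was 0.34, beside 0.06 over all genes.

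The levels of the remaining members in the control groups covered wide ranges that overlapped. Idh3a was at 1.98 to 6.15 (median 3.15) in LFC and 2.93 to 6.12 (median 4.05) in HFC, and Idh3b at 2.53 to 6.08 (median 3.70) and 2.95 to 6.36 (median 3.86). Ogdh was at -0.47 to 3.58 (median 1.37) in LFC and -0.21 to 3.74 (median 1.07) in HFC, and Fh1 at 2.44 to 6.61 (median 3.51) and 3.17 to 6.23 (median 4.28). The 3 largest median differences stood where the 2 arrays of a time point differed in brightness. At Day 10, where only the HFC array was bright, the median difference of the members was 2.28, and at Week 0 and Week 12, where only the LFC array was bright, it was -2.02 and -1.82. At the 6 time points with arrays of one brightness class, the mean change of all 9 members was above 0, from 0.16 for Mdh2 to 0.88 for Idh3a, and Idh3a was higher in HFC at 6 of 6. None of these changes passed the threshold either. For Fh1, Idh3b, Ogdh and Csl the sign of the change differed between settings.

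No member passed the threshold in the trend over time in LFC and HFC, given per 7 days. Weeks were counted as 14 days plus 7 days per week, so Day 14 and Week 0 were the same day. The slopes of all 9 members were below 0, from -0.09 for Ogdh (SE 0.04, adjusted p = 0.181 by limma) to -0.004 for Mdh2. The sign of the slope differed between settings for Fh1, Idh3a, Idh3g and Mdh2. The trend passed for 1.68% of all genes. With the brightness class in the model, Ogdh alone passed with a slope of -0.06 (adjusted p = 0.0249 by limma). The difference between the slopes of HFC and LFC ran from -0.03 for Idh3b to 0.03 for Mdh2 and passed for no member, as for 0% of all genes.

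The question of whether the dose of Kal-1 mattered was addressed over the 30 arrays of weeks 3 to 18. Levels were highest in HF20 and lowest in HF75 for 8 of the 9 members, all but Mdh2. The groups differed in brightness in these weeks. HF20 Week 3, 6, 12 and 15, LFC Week 3, 9 and 12, HFC Week 3 and HF75 Week 3 were bright. No HF5 array was bright. The part of brightness in the order of the groups was not tested beyond the fits with brightness in the model. The mean level of Idh3b was 5.63 in HF20, 4.38 in LFC, 4.17 in HFC, 3.57 in HF5 and 2.61 in HF75 (SD 0.88 to 1.79, n = 6). Ogdh followed the same order with 2.79, 1.31, 1.17, 0.41 and -0.58, and so did Fh1 and Csl. Idh3a and Suclg1 also ran from HF20 to HF75, with HFC next to HF20, and Cs and Idh3g with HF5 next to HF20. For Mdh2 the order was HF5, HF20, HFC, HF75 and LFC, with means from 7.72 to 6.46. The probes of Mdh2, Cs, Idh3g and Suclg1 were saturated on 4 of 6 HF20 arrays, LFC Week 3, 9 and 12 and HFC Week 3. Their means in HF20, LFC and HFC are lower bounds, so the orders of these members are not exact. The same holds for the HF20 and LFC means of Fh1, Idh3a and Idh3b. Fh1 was saturated on LFC Week 3, 9 and 12 and HF20 Week 12 and 15. Idh3a was saturated on LFC Week 9 and HF20 Week 12, and Idh3b on LFC Week 9 and HF20 Week 6. Of the 4 steps between neighbours in each of these orders, 1 for Idh3a and 1 for Suclg1, both from HF20 to HFC, exceeded the larger SD of the 2 groups. For the other 7 members none did. Without the HF75 array of Week 3, the mean of HF75 was the lowest for 7 members, all but Cs and Mdh2, with 2.98 for Idh3b and -0.28 for Ogdh (n = 5). For Cs it was 5.97 against 5.89 in LFC, and for Mdh2 7.24 against 6.46. Both LFC means are lower bounds, so which group was lower cannot be read.

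HF75 was lower than HF20 for 8 of the 9 members (limma, adjusted p from 0.014 to 0.045), all but Mdh2. Over all genes 25.5% passed in either direction and 12.8% were lower in HF75. The median change of the members was -2.50 on the log2 scale, beside 0.29 over all genes. For 7 of 9 members every HF75 array lay below every HF20 array, against 3.76% of all genes. Without the HF75 array of Week 3 this held for 7 of 9 members and 4.19% of all genes.

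Idh3b, a subunit of isocitrate dehydrogenase, was at 4.19 to 6.34 in HF20 (median 6.04) and 0.77 to 3.91 in HF75 (median 2.88). The groups did not overlap, and the level was 8.09-fold lower in HF75 (log2 change -3.02, SE 0.65, adjusted p = 0.014 by limma), with the probe saturated on 1 of 6 HF20 arrays. Idh3a, its partner subunit, was at 4.08 to 6.44 in HF20 (median 6.10) and 1.05 to 3.87 in HF75 (median 3.28). It was 6.46-fold lower (log2 change -2.69, SE 0.73, adjusted p = 0.019 by limma), also with 1 of 6 HF20 arrays saturated. A saturated level is a lower bound. Idh3g was at 5.80 to 6.69 in HF20 and 3.20 to 5.82 in HF75, which overlapped by the lowest HF20 array and the highest HF75 array. Its log2 change was -1.53 (SE 0.43, adjusted p = 0.020 by limma), with the probe saturated on 4 of 6 HF20 arrays.

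Ogdh, whose probe was saturated on no array, was at 0.73 to 4.03 in HF20 (median 3.28) and -2.09 to 0.71 in HF75 (median -0.56). It was 10.3-fold lower in HF75 (log2 change -3.37, SE 0.67, adjusted p = 0.014 by limma). Its second probe gave a mean difference of -3.28 ± 1.60 (SD, n = 6). Suclg1 was at 5.23 to 6.40 in HF20 (median 6.27) and 2.06 to 4.59 in HF75 (median 3.82). Suclg1 fell by 2.36 on the log2 scale (SE 0.58, adjusted p = 0.015 by limma), with 4 of 6 HF20 arrays saturated. Fh1 was at 4.18 to 6.41 in HF20 and 1.93 to 3.77 in HF75, and fell by 2.50 on the log2 scale (SE 0.60, adjusted p = 0.015 by limma), with 2 of 6 HF20 arrays saturated. Its second probe gave -2.58 ± 1.21 (SD, n = 6).

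Cs had the smallest change that passed. Its levels were 6.21 to 7.35 in HF20 and 4.51 to 6.18 in HF75, and it fell by 0.87 on the log2 scale (SE 0.31, adjusted p = 0.045 by limma), with 4 of 6 HF20 arrays saturated. The second probe of Cs, saturated on 4 of the 38 arrays, gave a mean difference of -2.35 over the 6 time points, against -0.87 for the first. Csl was at 0.42 to 3.50 in HF20 and -6.57 to -0.02 in HF75. It fell by 4.00 on the log2 scale (SE 0.82, adjusted p = 0.014 by limma), of which the largest difference, -10.1 at Week 15, rests on the HF75 array where the probe was not well above background. Mdh2 was at 6.31 to 8.55 in HF20 and 5.95 to 7.76 in HF75. These overlapped, with a log2 change of -0.13 (SE 0.37, adjusted p = 0.804 by limma). Its probe was saturated on 4 of 6 HF20 arrays and on no HF75 array, so the change is not exact. At Week 9 and 18, where neither array was saturated, the differences of Mdh2 were -1.70 and -0.67.

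**Figure D3:**
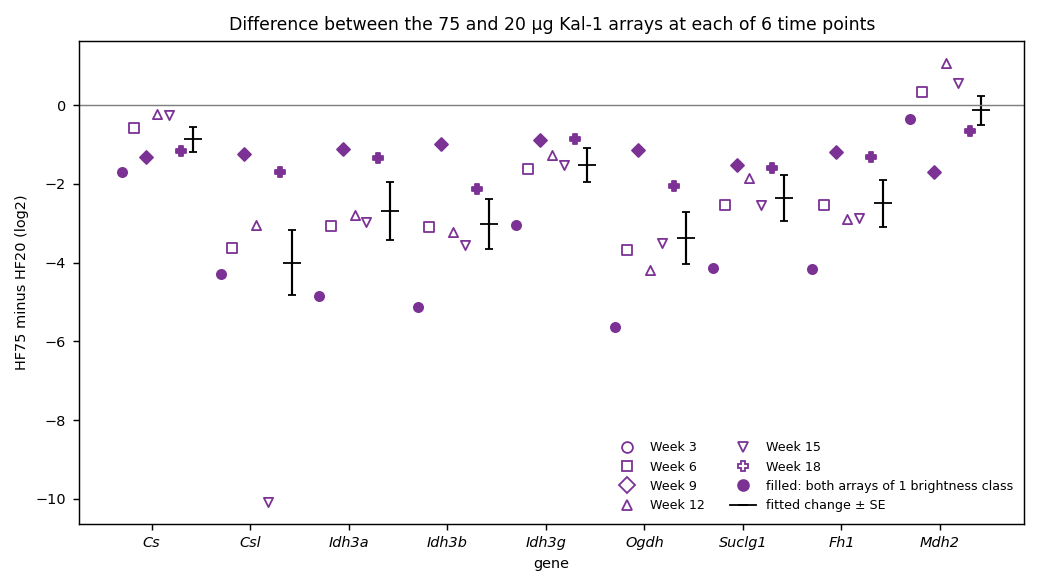
Difference between the HF75 and the HF20 array (log2) for each member at each of the 6 time points, filled where both arrays were of one brightness class, with the fitted change and its SE in black. All differences of the 8 members other than Mdh2 are below 0, and those of Mdh2 lie on both sides of it.

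The calls differed between settings. At Week 6, 12 and 15 only the HF20 array of the pair was bright. The call was lost for all 8 members with the brightness class in the model (changes from -0.39 for Mdh2 to -2.65 for Csl, adjusted p from 0.170 to 0.717 by limma) and without Week 6, Week 12 or Week 15. In those 3 fits with fewer arrays the median change was -2.48, -2.46 and -2.42, with a smallest adjusted p of 0.066, 0.075 and 0.078 by limma. At Week 3, 9 and 18, where both arrays were of one class, the difference was below 0 for all 9 members at 3 of 3 time points. The mean differences there ran from -0.91 for Mdh2 to -2.95 for Ogdh, without a call (adjusted p = 0.897 by limma). Without Week 3 they ran from -0.87 for Idh3g to -1.60 for Ogdh, each over 2 time points and with no test. Without the HF75 array of Week 3, 5 of the 8 members passed: Csl, Idh3b, Ogdh, Suclg1 and Fh1. With quantile normalization all 9 members passed, Mdh2 with a change of -0.87 (adjusted p = 0.037 by limma). Among all 21862 genes the count that passed ran from 0 to 7404 over the alternatives. In the fit without HF75 Week 3, Idh3a (-2.18, adjusted p = 0.054 by limma), Idh3g (-1.17, adjusted p = 0.060 by limma) and Cs (-0.64, adjusted p = 0.129 by limma) did not.

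Against the high-fat control, no member passed by limma at any dose, and 0% of all genes passed for each dose. At an unadjusted p under 0.05 there were 0 members in HF5, 2 in HF20 and 6 in HF75, and 1195, 7237 and 1998 of all genes. These comparisons share the 6 HFC arrays. In HF75 the change was below 0 for all 9 members, with a median of -1.30 beside -0.04 over all genes. Ogdh was lower in HF75 than in HFC at 6 of 6 time points, with levels of -0.21 to 3.17 (median 0.98) in HFC at weeks 3 to 18 and a change of -1.75 (SE 0.67, adjusted p = 0.535 by limma). Idh3b, Idh3g, Suclg1 and Csl were also lower at 6 of 6, with changes of -1.56, -0.92, -1.37 and -2.33. The change of Csl includes a difference of -5.71 at Week 15, where its probe was not well above background in HF75. The 2 arrays of every pair were of one brightness class in this comparison. By the median over the members, the largest difference stood at Week 3, at -4.29, against -0.04 to -1.27 at the other time points. Without the HF75 array of Week 3 the median change was -0.85, and Ogdh was at -1.29, Idh3b at -1.07, Cs at -0.37 and Mdh2 at 0.05.

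In HF20 the change against HFC was above 0 for all 9 members, with a median of 1.23 beside -0.20 over all genes. The largest were Csl at 1.67 (SE 0.82), Ogdh at 1.62 (SE 0.67) and Idh3b at 1.46 (SE 0.65), with adjusted p of 0.154, 0.123 and 0.132 by limma. The differences were large at Week 6, 12 and 15, where only the HF20 array was bright, with medians of 2.45, 1.94 and 2.88 over the members. At Week 3, 9 and 18 they were small, with medians of -0.22, 0.16 and 0.30. Without Week 3, Idh3b (1.76) and Ogdh (1.87) passed. Over the alternatives of this comparison, 0 to 3571 of all 21862 genes passed.

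In HF5 the changes against HFC ran from -0.82 for Fh1 to 0.62 for Mdh2, with a median of -0.30 beside 0.01 over all genes. Mdh2 was higher in HF5 at 6 of 6 time points (6.66 to 9.27 in HF5, 6.33 to 8.32 in HFC at weeks 3 to 18), but did not pass (SE 0.37, adjusted p = 0.821 by limma). Its probe was saturated on HFC Week 3 and not on HF5 Week 3, so the direction there cannot be read. With quantile normalization the change of Mdh2 was -0.02. Week 3 carried the largest difference, a median of -3.32, where only the HFC array was bright. At the 5 other time points the medians ran from -0.48 to 0.96.

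**Figure D4:**
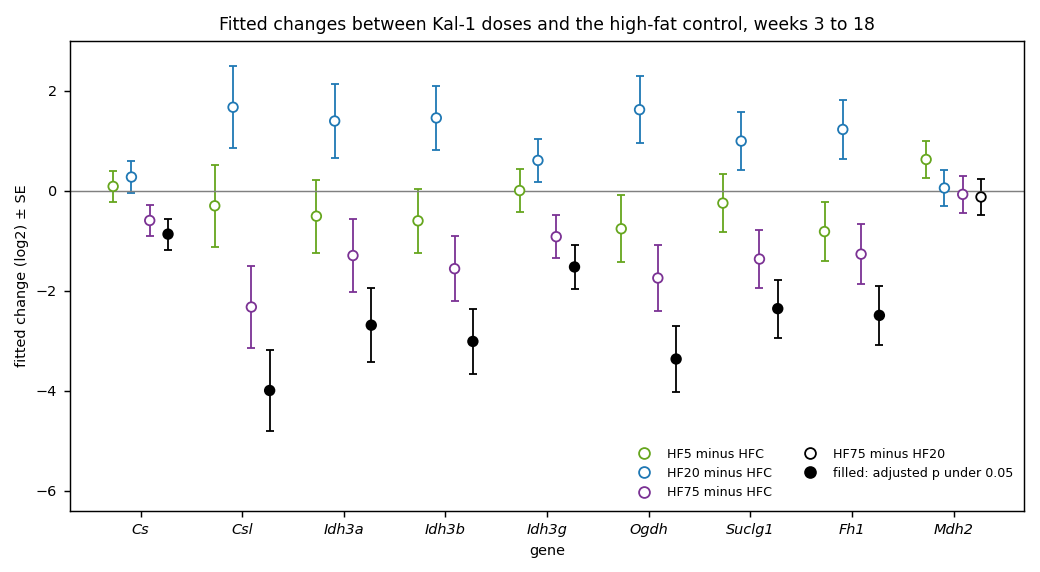
Fitted changes (log2, with SE) of each member in the comparisons of the doses with HFC and of HF75 with HF20 over weeks 3 to 18, filled where the adjusted p was under 0.05. The filled points are the 8 members in HF75 minus HF20, and Mdh2 is open in every comparison.

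The doses differed among themselves for 7 of 9 members by the moderated F test, all but Cs (adjusted p = 0.092 by limma) and Mdh2 (adjusted p = 0.277 by limma), and for 13.4% of all genes. No member passed without the HF75 array of Week 3, nor without Week 3, 6, 12 or 15. HF20 minus HF5 was above 0 for 8 members, with changes up to 2.38 for Ogdh (SE 0.67, adjusted p = 0.067 by limma), and below 0 for Mdh2 (-0.57). No member and 0% of all genes passed by limma, with 6 members and 7929 genes at an unadjusted p under 0.05. Without Week 9 4 members passed, and without Week 18 6 did. Over the alternatives the count over all 21862 genes ran from 0 to 6774 in this comparison. HF75 minus HF5 was below 0 for all 9 members, from -0.45 for Fh1 to -2.03 for Csl, and no member and 0% of all genes passed by limma, with 3 members and 504 genes at an unadjusted p under 0.05. Without the HF75 array of Week 3 the changes ran from -0.03 for Fh1 to -1.89 for Csl, and their median was -0.53 in place of -0.92. Both values of Csl include a difference of -5.96 at Week 15, where its probe was not well above background in HF75. With all arrays the next largest change in HF75 minus HF5 was -1.12 for Suclg1. These comparisons share arrays with each other and with HF75 minus HF20, so their values are not independent of it. With arrays of one brightness class only, at Week 9 and 18, the median change of HF20 minus HF5 was -0.32.

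Other enzymes of the cycle were listed apart. Of 9 other mitochondrial cycle genes (Idh2, Dlst, Dld, Suclg2, Sucla2, Sdha, Sdhb, Sdhc and Sdhd), 9 passed as lower in HF75 than in HF20. Idh2, the NADP-dependent isocitrate dehydrogenase, changed by -3.50 (SE 0.68), and Sdhb, a succinate dehydrogenase subunit, by -2.95 (SE 0.66). The other 7 changed by -1.62 (Suclg2) to -2.58 (Sdha). Of 10 enzymes outside the matrix cycle or feeding and draining it (Aco1, Idh1, Mdh1, Acly, Pcx, Me2, Me3, Glud1, Got1 and Got2), 6 passed as lower, with a median of -1.64 over the 10. They were Me3 (-3.43), Aco1 (-2.43), Acly (-2.18), Idh1 (-1.65), Mdh1 (-1.64) and Got2 (-0.71). Over all genes 25.5% passed in either direction and 12.8% passed as lower in HF75.

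In the F test among doses, 7 of the 9 mitochondrial genes passed (Dld, Dlst, Idh2, Sdha, Sdhb, Sdhc and Sdhd) and 4 of the 10 others (Acly, Aco1, Idh1 and Me3). The share over all genes in that test was 13.4%. In the other comparisons none of these genes passed. Those with the smallest p-values in HFC minus LFC were Acly, the ATP citrate lyase, at -2.04 (SE 0.43) and Sucla2 at 0.65 (SE 0.33), both with an adjusted p of 0.663 by limma. The smallest p-values among them were those of Aco1 in the trend, Acly and Glud1 in the difference of slopes, Idh1 and Me3 in HF5 minus HFC, Got1 and Idh2 in HF20 minus HFC, Me3 and Idh2 in HF75 minus HFC, Idh2 and Idh1 in HF20 minus HF5, and Sdhc in HF75 minus HF5.

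Markers of other cell types stood beside these comparisons. Over weeks 3 to 18 the summed level of the 10 brown adipocyte markers was 8.50 to 9.79 in HF20 and 3.17 to 8.57 in HF75. The summed level of 10 skeletal muscle markers (Acta1, Ckm, Myh4, Myh1, Mylpf, Actn3, Tnnt3, Tnni2, Pvalb and Atp2a1) was -0.25 to 8.49 in HF20 and 1.82 to 10.0 in HF75. That of 6 erythroid markers was 6.99 to 11.6 in HF20 and 6.84 to 11.9 in HF75. Of 5 white adipocyte markers the level was 0.08 to 3.66 in HF20 and -1.02 to 3.52 in HF75, of 5 macrophage markers 1.22 to 3.09 and 1.13 to 3.78, and of 6 lymphocyte markers -2.22 to 1.14 and -2.29 to 2.12. The ranges of the groups overlapped for every list, those of the brown adipocyte markers only between 8.50 and 8.57. These markers were lower in HF75 than in HF20 at 6 of 6 time points, by a difference of -5.33 at Week 3 and of -0.37 to -1.30 at the others. The probe of Ucp1 was saturated on HF20 Week 3, 6, 12 and 15 and on no HF75 array. The summed levels of HF20 there are lower bounds, so the overlap and these differences are not exact. At Week 6, 12 and 15 the mean log2 level of the brown adipocyte markers was 3.25, 4.69 and 4.58 in HF20. In HF75 it was 1.47, 2.44 and 2.54. The part of the brown adipocyte markers in the lower levels of the members was not tested. With the muscle markers in the model, the changes in HF75 minus HF20 were below 0 for all 9 members and 7 passed, HF75 Week 3 included.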

How the data were processed

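Brown adipose RNA was read on 1-colour Agilent arrays of mouse probes, with Cy3 as the dye. The deposited scanner files give each spot's intensity, background-subtracted by the scanner software but not normalized across arrays. That software is Feature Extraction 10.5.1.1 per the file headers and 9.1 in the submitters' processing notes. The authors also deposited log2 values with the LFC array of each time point as the zero. These served only as an alternative. Their 4 columns for Week 15 follow the arrays in array order and not by probe name, and were read that way. Unmapped sample columns numbered 0.

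Each signal was log2-transformed and reduced by its array's 75th percentile. Outlier spots were dropped, replicate spots averaged, and each gene represented by its highest-mean probe. RefSeq gave the same symbol for the transcripts of all 12 member probes. Testing needed a signal well above background on at least 6 arrays. Comparisons used limma 3.58.1 in R 4.3.3 with two-sided tests, p-values adjusted by Benjamini-Hochberg across every tested gene, a threshold of 0.05, and the time point as a block except in the trend. The number of arrays limits the precision.

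The members and the lists of other genes were chosen with earlier results of these data known. The genes named are all 9 members, the other cycle enzymes past the threshold or else the 2 with the smallest p-values, and the 3 genes with the highest r to each member. Some genes that this rule names are not reported here. Alternatives covered quantile and normexp (offset 50) normalization, the deposited values, filters, probe choice, blocks, array weights, covariates, saturated spots and left-out time points. The scan day as the block and the time points of one brightness class were added after the data were seen. Simulated data with known changes were used to test the fits.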

Additional observations from a re-analysis of the deposited data

Results flagged for a closer look

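Of 45 sets of values of one member in one group, 3 held an array that lay far from the others of its group. Chance sets apart about 1 in 20 such sets. Cs was at 4.51 in HF75 Week 3, with the nearest array of the group at 5.66. Csl was at -6.57 in HF75 Week 15, with the nearest at -1.67, and this was the only array on which its probe was not well above background. Suclg1 was at 5.23 in HF20 Week 18, with the nearest at 6.10. Its probe was saturated on HF20 Week 3, 6, 12 and 15, at 6.19 to 6.40. The spread of those bright arrays is therefore not measured.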

How the results depend on the processing

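In HF75 minus HF20 the count of members past the threshold was 8. It was 0 with normexp, with the brightness class or the log2 75th percentile as a covariate and at time points of one brightness class, and 5 with saturated spots missing. Leaving out 1 time point or the HF75 array of Week 3 gave 0 to 7 members and a median change of -2.76 to -2.08. In the F test among doses the count was 7. It was 0 with normexp, with no filter on dim probes and with the brightness class, the log2 75th percentile or the muscle markers as a covariate, 3 with saturated spots missing, and 0 to 7 with 1 time point or array left out. In HF20 minus HF5 the count was 0. It was 3 for genes well above background on every array, 6 with the slide as a random block, 2 with array weights and 0 to 6 with 1 time point left out, while the median change of 1.90 became 0.19 with the brightness class and -0.32 at time points of one class. In HF20 minus HFC leaving out 1 time point gave 0 to 2 members. In the trend 1 member passed with the brightness class as a covariate. In the other comparisons no alternative changed the count of 0 members. The cause of these shifts was not tested beyond what each alternative leaves out or adds.

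Of 81 results of single members, under 1929 alternatives in all, 1835 kept the side of the threshold, 69 lost it, 25 gained it and none that had passed reversed. The sign differed in 127 of them, none in a result that passed. Over the alternatives the count over all genes ran from 0 to 5 in HFC minus LFC, from 2 to 1724 in the trend (368), from 0 to 872 in the difference of slopes (0), from 0 to 3571 in HF20 minus HFC (0), from 0 to 1 in HF75 minus HFC (0), from 0 to 6774 in HF20 minus HF5 (0), from 0 to 7404 in HF75 minus HF20 (5585) and from 0 to 6468 in the F test (2922). Of the calls over all genes in HF75 minus HF20, 2795 were higher and 2790 lower. With dim signals raised to the lowest well above background these were 4676 and 2728. Quantile normalization moved the median of all genes in HF75 minus HF20 from 0.29 to 0.07, and all 9 members passed as lower there.

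The labels name no shared animal. Arrays were paired by their time point, as a block in all comparisons except the trend. Without this replicate block 7 members passed in HF75 minus HF20 and 5 in the F test among doses, and none in the other comparisons with this block.

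The levels of saturated probes are lower bounds. With 1 array per group and time point, the spread between animals is not measured.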
